A study of Mus musculus with 12 samples.

Results

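The genes described here mark monocytes or MHC class II antigen presentation, and were followed by name through RNA-seq of differentiating mouse myeloid progenitors. They are 9 of the 23309 genes in the deposited table. The 4 class II genes are Cd74, H2-Aa, H2-Ab1, and H2-Eb1, and the 5 monocyte genes are Ly86, F13a1, Cx3cr1, Mpeg1, and Ms4a6c. The genes were followed by name, without a threshold on their values, and were picked with earlier results of these data known. The question was whether a monocytic branch can be seen in these cultures and whether it differs by genotype.

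The 12 libraries form 6 groups of 2, wild-type (WT) or HMGN1-OE cells at 0, 36, and 96 h after estradiol (E2) was withdrawn. HMGN1-OE cells come from C57BL/6 mice carrying human HMGN1, a nucleosome-binding protein, as a transgene, and WT cells come from littermates. Cells of both genotypes are CD117+ bone marrow progenitors that were immortalized with a retroviral ER-HoxB8 fusion and grown with IL-3. The fusion holds them immature while E2 is present, so the 0 h cells are progenitors and later cells have begun to mature. All groups therefore share the fusion, the retrovirus, and the cytokine. The labels do not say that the libraries of a group are separate cultures, while the study calls them biological duplicates. P-values then measure only spread between such libraries, which on the deposited scale was pooled over genes of similar level. The libraries of a group are named library 0 and library 1 after their columns, and these digits are not known to link libraries of different groups.

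MHC class II molecules carry peptides from the endosome to the cell surface, where helper T cells read them. An alpha and a beta chain pair in the endoplasmic reticulum around the invariant chain Cd74, which is later cut away by proteases. Dendritic cells, B cells, and activated macrophages carry class II, while neutrophils carry little or none. The class II activator Ciita drives these genes together with factors that sit on a shared promoter pattern, the X box and the Y box. Monocytes arise beside neutrophils from a common progenitor, with Irf8 and Klf4 favouring the monocytic side.

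The pattern is shown in the promoters of H2-Aa and H2-Eb1, the class II members that the RefSeq tables hold, because class II genes are known to share it. The lines give the 150 bases before the gene start in GRCm38.p6, with an X box core (GCAACT) and a Y box core (GATTGG, the CCAAT motif read on the other strand) in capitals.
H2-Aa, chr17:34287824-34287973, minus strand: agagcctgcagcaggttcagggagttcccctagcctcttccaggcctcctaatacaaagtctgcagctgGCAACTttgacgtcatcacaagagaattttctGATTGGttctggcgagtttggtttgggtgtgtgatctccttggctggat
H2-Eb1, chr17:34305717-34305866, plus strand: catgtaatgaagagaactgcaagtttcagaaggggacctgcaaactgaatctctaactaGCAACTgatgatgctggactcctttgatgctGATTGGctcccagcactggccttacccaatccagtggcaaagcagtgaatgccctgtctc
The cores begin 81 and 49 bases before the start of H2-Aa and 91 and 60 bases before that of H2-Eb1, with 26 and 25 bases between them. The motifs were chosen after these sequences had been seen, and they do not overlap. In the 250 bases before the start of 32851 RefSeq promoters, 9.01% held the X core and 14.6% the Y core on either strand, and 11 (0.0335%) held them in this order on the gene's strand, 10 to 30 bases apart. The promoter of H2-Eb2 held the same arrangement, while those of H2-DMa, H2-DMb1, and H2-Oa did not and lacked these letters of the X core. The promoters of Ly86, F13a1, Cx3cr1, Mpeg1, and Ms4a6c held neither core. A match describes letters and not binding.

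The deposited values are FPKM scaled to synthetic ERCC RNAs that were added to RNA from a fixed number of cells. FPKM is per length, so levels may be set side by side between genes. A gene without signal is listed near 0.1 FPKM (0.0967 to 0.105 by library), and values at that level were read as no detectable RNA. The depth behind the values is unknown. Unless another setting is named, log2(FPKM + 1) was tested with limma over the 11516 genes that reached 1 FPKM in at least 2 libraries, and a gene was called at a Benjamini-Hochberg adjusted p-value under 0.05. With 2 libraries a side the smallest p of an exact permutation test is 0.333, and on the deposited scale limma over all 12 libraries took each gene's variance from a trend over expression, so a gene's own spread did not enter its p-value there. Of the 9 genes 7 were tested, and H2-Aa and Cx3cr1 stayed under 1 FPKM in all 12 libraries. In bulk RNA, fewer cells of a type and less RNA per cell cannot be told apart.

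Some libraries stood apart from their partners. WT 96 h library 1 had the lowest level of all genes, with a median of 2.02 on the log2 scale against a range of 2.02 to 3.06 at 96 h and 3.91 to 4.97 before. WT 0 h library 1 and WT 36 h library 0 were high in a set of monocyte genes, and HMGN1-OE 0 h library 0 and HMGN1-OE 36 h library 1 were both high in class II chains. Member results are given with and without these libraries where a call or its size turns on them.

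From 0 to 96 h the members moved in both directions. In WT cells 2 rose (Cd74 and Mpeg1) and 2 fell (Ly86 and F13a1) of the 7 tested, where 81.5% of all tested genes were called, nearly all of them lower. In HMGN1-OE cells 3 rose (Cd74, Mpeg1, and Ms4a6c) and 4 fell (Ly86, F13a1, H2-Ab1, and H2-Eb1), where 67.5% of all tested genes were called. These counts depend on the scale. After each library was centred on its median, 5 members rose (Cd74, H2-Ab1, H2-Eb1, Mpeg1, and Ms4a6c) and 1 fell (F13a1) in WT cells, and 3 rose and 1 fell in HMGN1-OE cells. On that scale 36.5% of all tested genes rose and 33.8% fell in WT, and 30.9% and 32.5% in HMGN1-OE cells. Between genotypes Cd74 alone was called, at 96 h.

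Cd74 was the class II gene that rose. It was low at 0 h, with 0.194 and 0.454 FPKM in WT and 0.293 and 0.314 in HMGN1-OE. At 36 h it had 0.551 and 0.234 FPKM in WT and 0.263 and 0.140 in HMGN1-OE. At 96 h it reached 2.67 and 11.98 FPKM in WT and 1.16 and 1.84 in HMGN1-OE. All 4 libraries at 96 h lay above all 8 earlier ones, and both WT libraries at 96 h lay above both HMGN1-OE libraries. The change from 0 to 96 h was 2.39 ± 0.33 (log2, SE) in WT cells, adjusted p = 1.33e-11, and 0.92 ± 0.33 in HMGN1-OE cells, adjusted p = 0.0105. Of all tested genes, 4.31% rose in WT and 5.08% in HMGN1-OE cells over this interval, and 77.2% and 62.4% fell. Under the 8 other settings that could test Cd74, the WT rise was called in 8 and the HMGN1-OE rise in 4. The WT rise was 1.48 without WT 96 h library 1 and 3.30 without library 0, and was called in both cases. The HMGN1-OE rise was not called without HMGN1-OE 96 h library 1 (0.73, adjusted p = 0.130) or without HMGN1-OE 0 h library 0 (0.91, adjusted p = 0.0756).

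At 96 h Cd74 was lower in HMGN1-OE than in WT cells by a difference of -1.48 ± 0.33, adjusted p = 0.00167 (limma). The group means were 1.50 ± 0.483 and 7.32 ± 6.58 FPKM (SD, n = 2 each). It was the 1 member called in a genotype comparison, among 0.669% of all tested genes called in this comparison. The call rested on WT 96 h library 1. Without that library the difference was -0.57, adjusted p = 0.9999, and without HMGN1-OE 96 h library 0 it was -1.28, adjusted p = 0.364. It was also not called under 7 of the 8 other settings that could test it, although the difference was as large or larger in each, from -2.14 to -1.48. The difference between the genotypes in their change from 0 to 96 h was not called (interaction -1.46, adjusted p = 0.179), and leaving out WT 96 h library 0 made that a call (-2.38, adjusted p = 6.28e-04).

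WT 96 h library 1 was also above its partner for some genes of antigen-presenting and scavenging cells and below it for others. Ctss, the protease that trims the invariant chain, had 51.9 FPKM there and 19.4 in its partner. Csf1r, the receptor for the macrophage growth factor, had 13.5 and 7.17, and Mrc1, the mannose receptor, 3.00 and 1.44. C1qb had 0.763 there and at most 0.138 in the other 11 libraries. In the other direction, Emr1, the gene of F4/80, had 13.9 FPKM there and 18.7 in its partner, Fcgr1, an Fc receptor, 3.36 and 8.78, and Cd80 1.53 and 3.42. Of the 18 tested genes of a monocyte list, 9 were higher in each of the WT 96 h libraries. The 11 genes of the macrophage list summed to 19.4 FPKM in library 1 and 21.3 in library 0 of WT and 11.8 to 20.4 in HMGN1-OE cells at 96 h, and Marco, Timd4, and Cd5l were at the no-signal level in all 12 libraries. Their part in the Cd74 result was not tested.

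The chain genes H2-Ab1 and H2-Eb1, whose products are the beta chains of I-A and I-E, were seen clearly in only 2 libraries. H2-Ab1 had 2.19 FPKM in HMGN1-OE 0 h library 0 and 1.43 in HMGN1-OE 36 h library 1. In the other 10 libraries it lay between 0.0862 and 0.238 FPKM. H2-Eb1 followed it, with 3.01 and 1.96 FPKM in those same libraries and 0.0765 to 0.406 in the rest. The partner libraries, HMGN1-OE 0 h library 1 and 36 h library 0, had 0.166 and 0.12 FPKM of H2-Ab1 and 0.349 and 0.269 of H2-Eb1. The high libraries are thus 1 of 2 at each time. H2-Ob, the beta chain of the DO molecule that restrains peptide loading, was also highest there, at 0.945 and 0.507 FPKM. Genes of other lineages moved with them. Of the 6 tested erythroid and megakaryocyte genes 6 were above the partner in both of these libraries. The globin gene Hbb-b1 had 34.5 FPKM against 5.10 in the partner at 0 h and 14.5 against 1.67 at 36 h. Pf4, the platelet factor, had 24.9 against 6.52 and 23.4 against 10.8. Emr1 had 119.3 against 37.7 and 40.9 against 17.6. The medians of all tested genes were 4.48 against 3.96 in the partner at 0 h and 4.19 against 4.30 at 36 h. The part of these lineages in the chain gene values was not tested.

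H2-Aa, the alpha chain that pairs with H2-Ab1, did not follow. It had 0.159 and 0.178 FPKM at 0 h and 0.170 and 0.110 at 36 h in HMGN1-OE cells, and in the 2 libraries with H2-Ab1 above 1 FPKM it was 0.159 and 0.110. Its highest value, 0.551 FPKM, was in WT 96 h library 1, where Cd74 was highest. Its other 11 values lay between 0.0977 and 0.178 FPKM. The H2-Ea-ps row, an alpha chain pseudogene of C57BL/6 mice, ran from 0.0881 to 0.326 FPKM. Across the 12 libraries H2-Ab1 and H2-Eb1 correlated at r = 0.98 on the log2 scale, which 2 points set. Cd74 correlated with them at -0.23 and -0.34 on this scale and at 0.80 and 0.72 after each library was centred on its median. These correlations describe the libraries and carry no test.

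**Figure D1:**
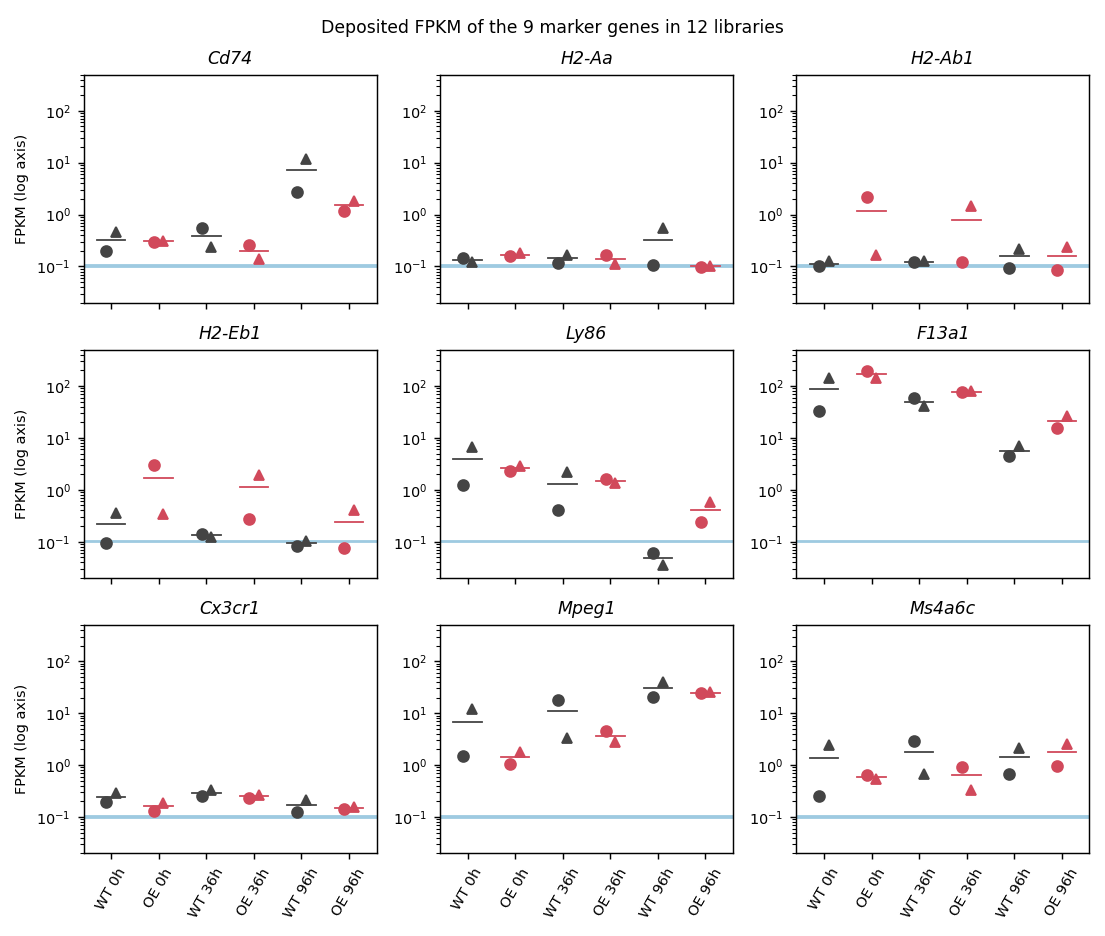
FPKM on a log axis for each of the 9 genes, with WT in grey, HMGN1-OE in red, library 0 as circles, library 1 as triangles, a bar at each group mean, and the no-signal level (0.0967 to 0.105 FPKM) as a blue band. Cd74 and Mpeg1 are highest at 96 h, F13a1 and Ly86 are lowest there, and H2-Ab1 and H2-Eb1 pass 1 FPKM in 2 HMGN1-OE libraries only.

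Neither chain gene was called between genotypes. At 0 h the differences were 0.79 ± 0.30 for H2-Ab1 (adjusted p = 0.373) and 0.94 ± 0.31 for H2-Eb1 (adjusted p = 0.141), where 1.36% of all tested genes were called. In that comparison 4 of the 7 tested members (H2-Ab1, H2-Eb1, F13a1, and Mpeg1) had an unadjusted p-value under 0.05, as did 3.97% of all tested genes. Leaving out HMGN1-OE 0 h library 1, the low one, gave 1.52 (adjusted p = 0.00593) and 1.72 (adjusted p = 9.44e-04). The test then compared a lone library with its assumed spread. The H2-Eb1 difference, unchanged at 0.94, was also called without WT 36 h library 0 (adjusted p = 0.0484) or library 1 (adjusted p = 0.0456). At 36 h H2-Eb1 was called without HMGN1-OE 36 h library 0 (1.38, adjusted p = 0.0417). The fall from 0 to 96 h in HMGN1-OE cells was called for both, at -0.73 ± 0.30 (adjusted p = 0.0242) and -0.92 ± 0.31 (adjusted p = 0.00587), against 62.4% of all genes called lower. Without HMGN1-OE 0 h library 0 it was -0.01 (adjusted p = 0.988) and -0.13 (adjusted p = 0.787). In WT cells neither gene was called from 0 to 96 h, at 0.05 (adjusted p = 0.870) and -0.15 (adjusted p = 0.636), with every WT value at or under 0.350 FPKM.

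**Figure D2:**
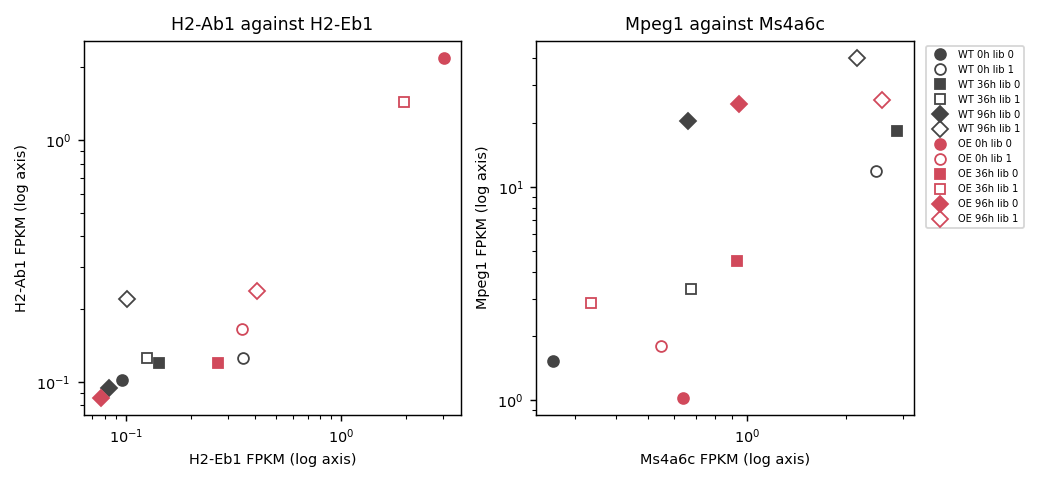
H2-Ab1 against H2-Eb1 (left) and Mpeg1 against Ms4a6c (right) in the 12 libraries, in FPKM on log axes, with WT in grey, HMGN1-OE in red, 0 h as circles, 36 h as squares, 96 h as diamonds, library 0 filled, and library 1 open. The high H2-Ab1 and H2-Eb1 values are those of HMGN1-OE 0 h library 0 and 36 h library 1. For Ms4a6c, WT 0 h library 1 and WT 36 h library 0 lie near library 1, not library 0, of each 96 h group.

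Much of the class II machinery was measured, while its activator stayed near the no-signal level. Ciita stayed between 0.0939 and 0.123 FPKM in all 12 libraries, at or barely above the no-signal level. H2-Ob, H2-Ea-ps, H2-Eb2, Cd86, and Cd40 also stayed under 1 FPKM in all 12. The other 14 of the 20 genes of the class II machinery list were tested, and 0 were called between genotypes at any time by limma, where 1.36%, 1.26%, and 0.669% of all tested genes were called at 0, 36, and 96 h. At an unadjusted p-value under 0.05 there were 2, 1, and 1 of them, against 3.97%, 5.15%, and 2.73% of all tested genes. At 96 h against 0 h, 3 rose and 8 fell in WT cells and 2 rose and 8 fell in HMGN1-OE cells, where 4.31% of all tested genes rose and 77.2% fell in WT and 5.08% and 62.4% in HMGN1-OE cells. The list medians were -1.42 and -1.01 against -1.75 and -1.28 for all tested genes. After centring 7 were higher and 2 lower in WT, where 36.5% of all tested genes were higher and 33.8% lower, while HMGN1-OE cells had 5 risers and 1 faller, against 30.9% and 32.5%. Of the factors that bind the X and Y boxes most fell on the deposited scale. Rfx5 changed by -2.23 and -2.01, Rfxap by -1.63 and -1.22, Nfya by -2.21 and -1.41, Nfyb by -1.76 and -1.16, and Nfyc by -1.96 and -1.36 in WT and HMGN1-OE cells. Rfxank changed by -0.78 and -0.30 and was not called. In HMGN1-OE cells the fall of Nfyb was called in 4 of the 12 fits that left out a library, that of Nfyc in 9, and that of Nfya in 10. After centring the changes of these 5 called factors ran from -0.69 to 0.22, with Nfyb and Rfxap turned to small positive values, and Rfxank rose by 1.06 and 1.01.

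Ctss and Cd80, the latter a costimulatory ligand, rose in both genotypes. Ctss changed by 2.66 ± 0.45 in WT (adjusted p = 2.24e-08) and 3.31 ± 0.45 in HMGN1-OE cells (adjusted p = 5.06e-12), the former being 1.26 without WT 0 h library 0 and 4.06 without library 1. The rises were called in 6 of 9 other settings in WT and 7 of 9 in HMGN1-OE cells, where they were as large or larger. Cd80 changed by 1.26 ± 0.33 and 1.50 ± 0.33 (adjusted p = 3.32e-04 and 4.08e-05). Lgmn, an endosomal protease, rose by 0.83 ± 0.33 in WT cells (adjusted p = 0.0148) and fell by 0.75 ± 0.33 in HMGN1-OE cells (adjusted p = 0.0324). The HMGN1-OE fall was called in 3 of 8 other settings, and centring turned it to 0.56. The interaction for Lgmn was -1.58 (adjusted p = 0.0786), and the WT rise rested on WT 96 h library 1, at 3.01 FPKM against 0.574 in its partner (0.15 without it, adjusted p = 0.724). Ifi30, the lysosomal thiol reductase, fell by 2.36 in WT and by 1.73 in HMGN1-OE cells. The WT change was -3.40 without WT 0 h library 0 and -1.31 without library 1, and was called in both cases. The HMGN1-OE change was not called without HMGN1-OE 0 h library 0 (-0.94, adjusted p = 0.238) or without HMGN1-OE 96 h library 0 (-1.03, adjusted p = 0.210). Under the other settings Ifi30 was called in 5 of 9 in each genotype, from -2.48 to -0.42 in WT and from -1.85 to -0.38 in HMGN1-OE cells. Ctss, Cd80, and Lgmn were singled out after their values were seen.

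Mpeg1, which encodes the pore-forming protein perforin-2 of macrophages and other myeloid cells, was the monocyte gene with the clearest rise. At 0 h it had 1.53 and 11.9 FPKM in WT and 1.03 and 1.80 in HMGN1-OE cells. At 36 h it had 18.3 and 3.34 FPKM in WT and 4.52 and 2.85 in HMGN1-OE cells. At 96 h it had 20.4 and 40.3 FPKM in WT and 24.4 and 25.5 in HMGN1-OE cells. All 4 values at 96 h lay above the 8 earlier ones, and the genotypes overlapped at every time. The rise to 96 h was 2.38 ± 0.47 in WT (adjusted p = 1.45e-06) and 3.44 ± 0.47 in HMGN1-OE cells (adjusted p = 5.60e-12). The WT rise was called in all 12 fits that left out a library, at 1.21 without WT 0 h library 0 and 3.55 without library 1. Among the 9 other settings the WT rise was called in 7, but not with no filter (adjusted p = 0.0709, limma) or no moderation (adjusted p = 0.0650). Means rose 4.52-fold in WT and 17.6-fold in HMGN1-OE cells, and the interaction of 1.06 was not called (adjusted p = 0.810).

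The genotype difference of Mpeg1 was set by single WT libraries. It was -1.26 ± 0.47 at 0 h (adjusted p = 0.325), -0.99 ± 0.47 at 36 h (adjusted p = 0.496), and -0.20 ± 0.47 at 96 h (adjusted p = 0.888). Without WT 0 h library 0 the 0 h difference was -2.43 and was called (adjusted p = 0.00153), and without WT 0 h library 1 it was -0.09. At 36 h, leaving out WT 36 h library 1 gave -2.06 (adjusted p = 0.0358), and leaving out WT 36 h library 0 gave 0.09.

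Ms4a6c, a membrane protein of the Ms4a family found in monocytes and macrophages, stayed under 3 FPKM. It had 0.257 and 2.48 FPKM in WT 0 h, 2.86 and 0.675 in WT 36 h, and 0.659 and 2.16 in WT 96 h libraries. In HMGN1-OE cells it had 0.638 and 0.547 at 0 h, 0.936 and 0.336 at 36 h, and 0.949 and 2.58 at 96 h. Its change to 96 h was 0.73 ± 0.34 in HMGN1-OE cells (adjusted p = 0.0473) and 0.13 ± 0.34 in WT cells (adjusted p = 0.716). The WT change was 0.87 without WT 0 h library 1 and -0.60 without library 0. The HMGN1-OE call was kept in 3 of 8 other settings. The HMGN1-OE change was 0.29 without HMGN1-OE 96 h library 1 and 1.17 without library 0, and its call was lost in 5 of 12 fits that left out a library. Of the 50-base stretches of its longest transcript in GENCODE vM21, 11.3% also occur in other genes, chiefly Ms4a6b, so some of its reads may have been shared.

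WT 0 h library 1 and WT 36 h library 0 had the highest Ms4a6c values of the WT cells, and the same 2 libraries were high for some other monocyte genes. Of the 18 tested monocyte genes 16 were higher in WT 0 h library 1 than in its partner, and 12 were higher and 6 lower in WT 36 h library 0. Other lineages moved in these libraries too. Of the 8 tested basophil and mast cell genes 7 were higher in WT 0 h library 1 and 8 in WT 36 h library 0 than in the partner, with Ms4a2, a chain of the IgE receptor, at 62.0 against 8.52 FPKM in the latter. Of the 15 tested neutrophil genes 9 and 12 were higher there. Over all tested genes the library medians on the log2 scale were 3.91 and 4.78 at 0 h and 4.69 and 4.97 at 36 h. Ly6c2, which encodes a surface protein of inflammatory monocytes and maturing granulocytes, had 92.3 and 845.5 FPKM in the WT 0 h libraries and 2179 and 274.7 in the WT 36 h libraries. Irf8 had 2.72 and 15.2 FPKM at 0 h and 12.9 and 6.47 at 36 h. Ccr2, the receptor that draws monocytes from the marrow, had 3.60 and 35.7 at 0 h and 38.3 and 7.32 at 36 h. Ctss had 0.963 and 12.7, then 13.3 and 1.18. At 36 h S100a4, a calcium-binding protein of many myeloid cells, went the other way with 21.6 and 114.7 FPKM, as did the interferon-induced Ifi204 with 11.8 and 34.8, Tgfbi with 12.5 and 18.0, and the member Ly86. In HMGN1-OE cells Ccr2 ran from 6.61 to 12 FPKM and Ctss from 0.827 to 1.41 over 0 and 36 h, while Nr4a1, a nuclear receptor of monocytes, had 1.67 and 0.476 at 0 h and 0.539 and 1.98 at 36 h. The part of these 2 libraries in the WT levels was not tested beyond leaving each out.

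F13a1, the A subunit of coagulation factor XIII made by monocytes, macrophages, and platelets, fell. It had the highest mean of the 9 genes over the 12 libraries, though not at 96 h. At 0 h it had 32.6 and 142.6 FPKM in WT and 198.5 and 140.5 in HMGN1-OE cells. At 36 h it had 59.7 and 40.7 FPKM in WT and 77.1 and 78.9 in HMGN1-OE cells. At 96 h it had 4.39 and 6.90 FPKM in WT and 15.7 and 26.2 in HMGN1-OE cells. The HMGN1-OE libraries lay above the WT libraries at 36 and 96 h and overlapped them at 0 h. From 0 to 96 h F13a1 fell by 3.41 ± 0.54 on the log2 scale in WT (adjusted p = 3.30e-09) and by 2.98 ± 0.54 in HMGN1-OE cells (adjusted p = 4.84e-07), beyond the medians of -1.75 and -1.28 of all tested genes. The WT change was -4.46 without WT 0 h library 0 and -2.36 without library 1, and was called in both cases.

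The genotype difference of F13a1 had the same sign at each time but did not pass the test. It was 1.27 ± 0.54 at 0 h (adjusted p = 0.660), 0.65 ± 0.54 at 36 h (adjusted p = 0.496), and 1.71 ± 0.54 at 96 h (adjusted p = 0.204). The ratio of means at 96 h was 3.71. Libraries without overlap were common there, since 10.2% of all tested genes lay higher in HMGN1-OE cells in both libraries, but at 36 h only 1.18% did while 84.4% lay lower. The 0 h difference was called without WT 0 h library 1 (2.32, adjusted p = 0.0247) and was 0.23 without WT 0 h library 0.

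Ly86, which encodes MD-1, the partner of the Toll-like receptor homologue Cd180, also fell. At 0 h it had 1.25 and 6.64 FPKM in WT and 2.34 and 2.93 in HMGN1-OE cells. At 36 h it had 0.403 and 2.19 FPKM in WT and 1.61 and 1.34 in HMGN1-OE cells. At 96 h it had 0.0616 and 0.0363 FPKM in WT, at or under the no-signal level, and 0.245 and 0.588 in HMGN1-OE cells. The change to 96 h was -1.98 ± 0.35 in WT (adjusted p = 6.36e-08) and -1.37 ± 0.35 in HMGN1-OE cells (adjusted p = 3.18e-04). Without WT 0 h library 0 or library 1 the WT change was -2.87 or -1.10. Relative to the library median these changes were -0.14 and -0.05, neither of them called, so Ly86 fell about as far as the typical gene on this scale. Quantile normalization gave -1.53 (adjusted p = 0.00444, limma) in WT and -0.74 (adjusted p = 0.0993) in HMGN1-OE cells. The fall was called in 7 of 8 other settings in WT and 4 of 8 in HMGN1-OE cells. With a pseudocount of 0.1, which compresses low values less, the WT change was -4.34. The genotype difference at 96 h was 0.42 (adjusted p = 0.859), with both HMGN1-OE values above both WT values. Cd180 itself was 0.661 to 5.13 FPKM over the 12 libraries.

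Cx3cr1, the fractalkine receptor of patrolling monocytes and resident macrophages, was not detected above a trace. Its lowest, median, and highest values were 0.127, 0.204, and 0.328 FPKM, and all 6 groups overlapped their neighbours in level. In GENCODE vM21 its gene model overlaps 9 others, and the library kit does not mark strand, so even the trace cannot be assigned with certainty. H2-Eb1, F13a1, and Ms4a6c also overlap transcripts on the opposite strand.

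**Figure D3:**
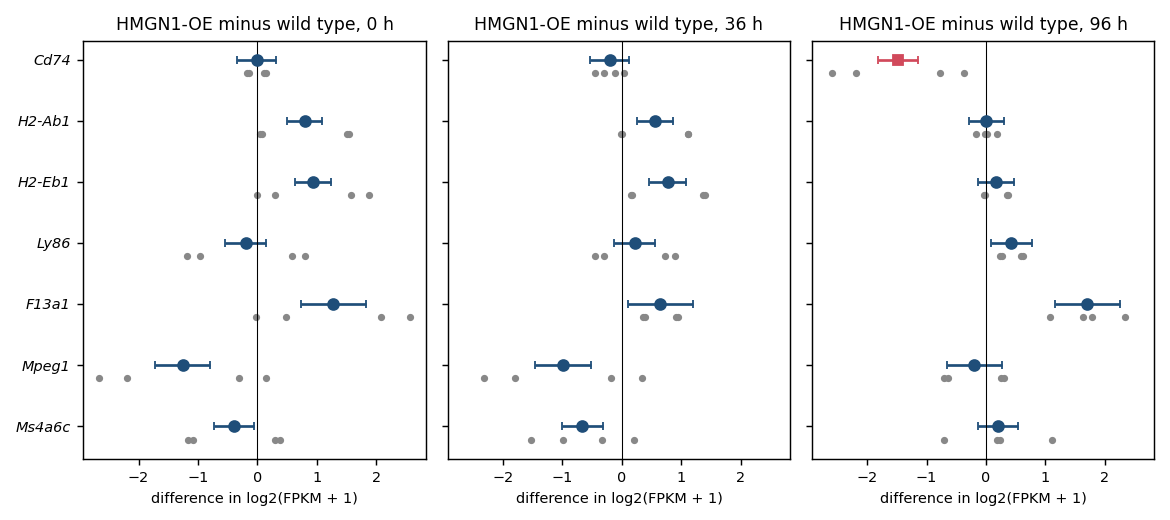
HMGN1-OE minus WT difference in log2(FPKM + 1) for the 7 tested genes at each time, with the limma estimate and SE as large points and the 4 differences between single libraries as small grey points. The red square, Cd74 at 96 h (-1.48), is the 1 called difference, and the grey points of Mpeg1, F13a1, H2-Ab1, and H2-Eb1 at 0 h spread more widely than the SE.

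By level, few neighbouring groups were apart in both libraries, and with 2 libraries a group this describes the values and carries no test. For Cd74 the order was WT 96 h, HMGN1-OE 96 h, and then the 4 earlier groups, and 3 of 5 neighbouring pairs in the order did not overlap. For F13a1 the order was HMGN1-OE 0 h (169.5 ± 41.0 FPKM, SD, n = 2), WT 0 h, HMGN1-OE 36 h, WT 36 h, HMGN1-OE 96 h, and WT 96 h (5.65 ± 1.78), and the last 3 steps did not overlap. For Mpeg1 the 2 groups at 96 h led (30.3 ± 14.1 in WT and 24.9 ± 0.741 in HMGN1-OE cells) and overlapped each other, and HMGN1-OE 0 h was lowest (1.41 ± 0.542). For Ms4a6c, H2-Ab1, and Cx3cr1 no neighbouring groups were apart, and for H2-Eb1 and H2-Aa 1 pair was, near the no-signal level. For Ly86, 2 of 5 pairs were apart.

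At 36 h no member was called against 0 h in WT (0.617% of all genes called) or in HMGN1-OE cells (1.80%). The furthest were Ly86 in WT, at -0.97 (adjusted p = 0.506), and F13a1 in HMGN1-OE cells, at -1.09. That of Ly86 was -1.85 without WT 0 h library 0, -0.08 without WT 0 h library 1, and -1.56 without WT 36 h library 1. At an unadjusted p-value under 0.05 there were 1 member in WT (3.28% of all genes) and 2 in HMGN1-OE cells (5.02%). At 36 h none was called by limma between genotypes either (1.26% of all genes called), with 2 members at an unadjusted p-value under 0.05 (5.15% of all genes). At 96 h 2 members, Cd74 and F13a1, were at that level (2.73% of all genes). Of 7 members 0 were called by limma in the interaction tests at 36 and 96 h, where 0.504% and 0.677% of genes were. There 0 and 1 members had an unadjusted p-value under 0.05, against 1.91% and 2.90% of genes.

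In the wider monocyte list of 24 genes more genes rose than fell. Of its 18 tested genes, 6 rose and 2 fell from 0 to 96 h in WT cells, where 4.31% of all tested genes rose and 77.2% fell. In HMGN1-OE cells 9 rose and 1 fell, where 5.08% rose and 62.4% fell. After centring 15 rose and 1 fell in WT, where 36.5% of all tested genes rose and 33.8% fell, and 16 rose and 1 fell in HMGN1-OE cells, against 30.9% and 32.5%. The list medians were 0.50 and 0.95, against -1.75 and -1.28 for all tested genes. Lyz2, the lysozyme of neutrophils and monocytes alike, rose from 96.2 and 159.8 to 3303 and 3157 FPKM in WT and from 84.7 and 83.7 to 3098 and 3893 FPKM in HMGN1-OE cells. Csf1r rose by 2.65 ± 0.38 and 2.74 ± 0.38, to 7.17 and 13.5 FPKM in WT and 7.52 and 8.64 in HMGN1-OE cells. Ifi204 was called lower in both genotypes, from 17.3 and 30.7 FPKM to 0.406 and 0.793 in WT. In HMGN1-OE cells it went from 15.0 and 19.5 to 0.572 and 0.775 FPKM. Ccr2, Cd180, and S100a4 were among the genes called in neither genotype. Tgfbi, a matrix protein of monocytes and macrophages, rose by 1.33 ± 0.50 and 2.79 ± 0.50, and the WT rise was called in 8 of 9 other settings and in 11 of 12 fits that left out a library, the exception being WT 0 h library 0 (0.95, adjusted p = 0.0884).

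The transcription factors of the lineage split. Sfpi1, the gene of PU.1, changed by 0.39 and 1.01 and was not called. After centring it rose by 2.24 and 2.32 (adjusted p = 6.04e-05 and 7.35e-05), and it was called in 2 of 9 other settings in each genotype. Klf4 rose by 0.70 ± 0.33 in WT cells (adjusted p = 0.0403) and changed by 0.55 ± 0.33 in HMGN1-OE cells (adjusted p = 0.118), staying at or under 2.17 FPKM. After centring it rose by 2.54 and 1.86 in WT and HMGN1-OE cells (adjusted p = 6.05e-04 and 0.00423). The WT rise was called in 6 of the 12 fits that left out a library, from 0.44 without WT 0 h library 0, where it was not called, to 0.96 without library 1, and was 0.51 without WT 96 h library 1 (adjusted p = 0.225). Irf8 fell by 1.06 ± 0.43 in WT cells (adjusted p = 0.0174), a change that was -0.00043 without WT 0 h library 1 and was 0.78 relative to the library median, where it was not called. In HMGN1-OE cells Irf8 changed by 0.26 (adjusted p = 0.592), and by 1.57 relative to the library median, where it was called (adjusted p = 0.0170). In the same libraries the neutrophil list of 15 measured genes summed to 2434 to 16906 FPKM at 0 and 36 h and to 66964 to 174701 at 96 h. The monocyte list summed to 249 to 3589 at 0 and 36 h and to 3889 to 5908 at 96 h. Most of the monocyte sum at 96 h was Lyz2, and most of the neutrophil sum was S100a8 and S100a9. S100a8 had 29366 to 83718 FPKM at 96 h, while S100a9 was listed at 0.05 FPKM in WT 96 h library 0.

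**Figure D4:**
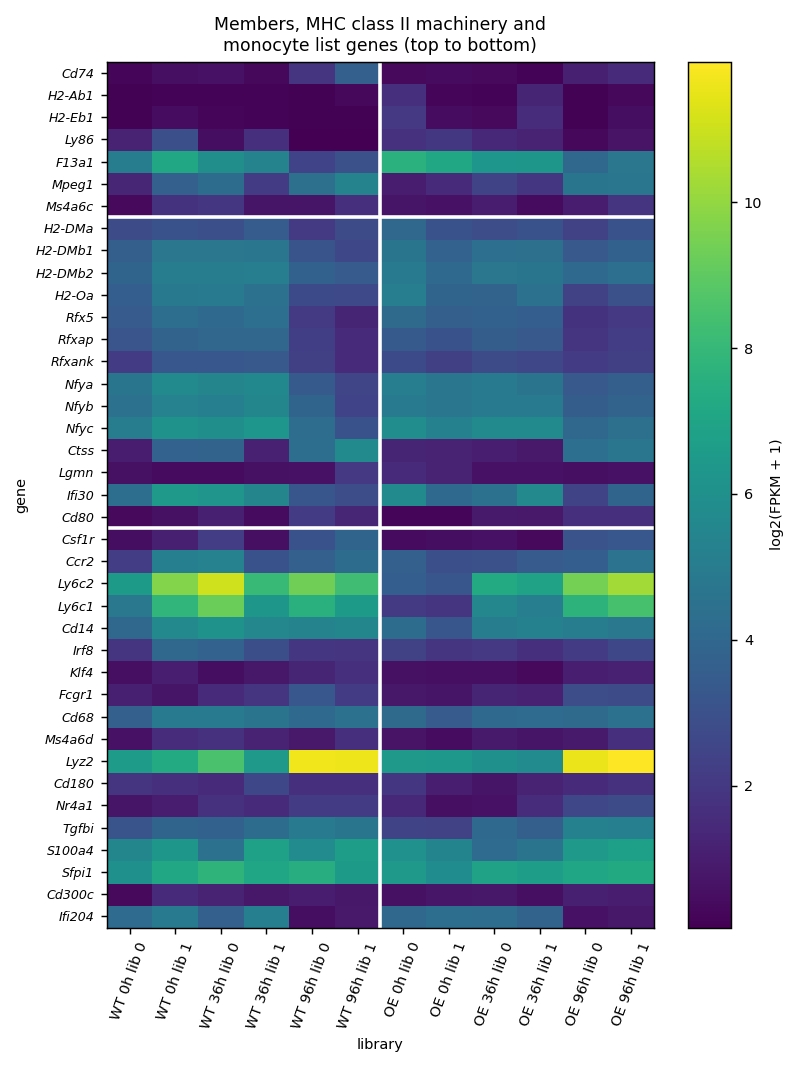
log2(FPKM + 1) of the tested genes in each library, with members at the top, class II machinery in the middle, and the monocyte list at the bottom, WT to the left and HMGN1-OE to the right. Lyz2 is bright in the 4 libraries at 96 h, Ly6c2 and Ly6c1 are dark in the HMGN1-OE 0 h libraries, and the H2-Ab1 and H2-Eb1 rows are dark but for 2 HMGN1-OE libraries.

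Of the 18 tested monocyte genes 3 were called between genotypes, 2 at 0 h and 3 at 36 h, where 1.36% and 1.26% of all tested genes were called. Ly6c2 had 92.3 and 845.5 FPKM in WT but 10.9 and 8.43 in HMGN1-OE cells at 0 h, a difference of -4.73 ± 0.59 (adjusted p = 5.75e-13). This was called in all 12 fits that left out a library, from -6.32 to -3.14, but not after centring (-4.59, adjusted p = 0.288). At 36 h it had 2179 and 274.7 against 158 and 117 FPKM, a difference of -2.50 ± 0.59 (adjusted p = 0.00292, limma). Without WT 36 h library 0 it was -1.01 and not called. The difference was called in 9 of the 12 fits that left out a library and in 3 of 9 other settings. At 96 h the order turned, with 661.8 and 306.5 FPKM in WT and 702 and 1257 in HMGN1-OE cells, and the difference of 1.06 was not called (adjusted p = 0.859). Ly6c1 followed it, at -4.36, -2.46, and 1.04. The 2 genes are near-identical neighbours and their reads may have been split between them, so they count as 1 observation. Irf8 was lower in HMGN1-OE cells at 36 h (-1.49 ± 0.43, adjusted p = 0.0412), and this call was lost in 7 of 12 fits that left out a library.

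Each detected member also had close companions among all tested genes. Likeness was Pearson's r over the 12 libraries on log2 values centred on each library's median, and r without centring is given second, because genes near the no-signal level share the subtraction. Cd74 was closest to LOC100038947 (0.995 and 0.989), Sirpb1b (0.994 and 0.989), both of a family with shared sequence, Msr1, the macrophage scavenger receptor (0.993 and 0.979), Sirpb1a (0.990 and 0.980), and L1cam (0.990 and 0.969). Mpeg1 was closest to Mmp19, Herc3, Clcn4-2, Cfp, and Unc93b1, of which Cfp, the complement protein properdin, kept its likeness without centring (0.988 and 0.975) and Clcn4-2 did not (0.988 and -0.36). Ms4a6c was closest to its family member Ms4a6d, and F13a1 to Zfp958 (0.905 and 0.865) and Laptm4b (0.897 and 0.961). Ly86 was closest to S1pr1, a lymphocyte and progenitor egress receptor (0.922 and 0.949), and H2-Ab1 and H2-Eb1 both to Acyp2 (0.995 and 0.989 centred), which shares their 2 high libraries. The other genes among the closest 5 were Acaa1a, Vwa5a, Ctss, and 2900056M20Rik for Ms4a6c, Eif4e3, Spint2, and Irf3 for F13a1, and Limch1, Pcmtd1, C230035I16Rik, and Prob1 for Ly86. They were B630019K06Rik, Hoxa3, Sncaip, and Oaz3 for H2-Ab1, and B630019K06Rik, Ppm1e, Tgtp1, and Chrm4 for H2-Eb1. The mean profile of the 3 tested class II genes was closest to Kif1c, at 0.993 with centring and 0.424 without, followed by 2610306M01Rik, Uggt2, Nol3, and Derl3. With 12 points in 6 groups these values describe the libraries only.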

How the data were processed

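RNA-seq of 12 libraries in 6 groups was analysed. The authors extracted RNA from equal numbers of cells with TRIzol, added ERCC RNAs, prepared polyA libraries with a kit that does not mark strand, and deposited FPKM for each gene after loess normalization to the ERCC RNAs. Their methods name Bowtie, while the submitters' processing notes list HISAT, Cufflinks 2.0.0, and mm9, so the build of the files was not settled and gene coordinates are given only for RefSeq promoters (GRCm38.p6). The table holds 23309 genes and 92 ERCC RNAs. Read depth is unknown, so no counting error is given. Such scaling keeps a change in total RNA per cell in the values, while centring on the median removes it.

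From the deposited FPKM, log2(FPKM + 1) was fitted with limma 3.58.1 in R 4.3.3 (lmFit, eBayes with trend) with 6 group means over all 12 libraries, for the 11516 genes of at least 1 FPKM in at least 2 libraries. Tests were two-sided with Benjamini-Hochberg adjustment over these genes. Tables and figures were made in Python 3.11.15 with numpy 2.4.6, pandas 2.3.3, and matplotlib 3.10.9, and the test was checked on simulated data.

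The human transcript of the transgene was not analysed. The members and the gene lists were chosen with earlier results of these data known. Besides the members, the text names from the class II machinery and monocyte lists the genes called between genotypes, the 4 of highest mean FPKM, and Ciita, Rfx5, Irf8, Klf4, and Sfpi1, and the 5 genes most like each profile. Ctss, Cd80, Lgmn, Csf1r, Tgfbi, Ccr2, S100a4, Ifi204, Nr4a1, Ms4a2, Rfxank, Rfxap, the other genes under 1 FPKM, H2-Ob, H2-Ea-ps, Cd180, and the macrophage, neutrophil, erythroid, and megakaryocyte genes were named after their values were seen. The naming rule also took further genes, most of them of the other lineage lists, and those not named in the text are not reported here. The alternatives were a pseudocount of 0.1, no filter, a mean of at least 5 FPKM, centring on the median, quantile normalization, no trend, the robust option, no moderation, only the groups compared, and each library left out in turn.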

Additional observations from a re-analysis of the deposited data

Results flagged for a closer look

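The change of Ly6c2 from 0 to 96 h differed between the genotypes, with an interaction of 5.79 on the log2 scale (adjusted p = 2.69e-09, limma), and that of its near-identical neighbour Ly6c1 did as well, with 5.40 (adjusted p = 4.09e-09). The HMGN1-OE rise was 6.47 for Ly6c2, higher in both libraries at 96 h than in both at 0 h, and the WT change was 0.68 with overlapping libraries. That WT change was -0.91 without WT 0 h library 0 and 2.27 without library 1, where it was called (adjusted p = 0.00511). The interaction of Ly6c2 was called in all 12 fits that left out a library, from 4.19 to 7.38, and in 5 of 9 other settings, with values from 5.07 to 5.91 and adjusted p-values from 1.78e-09 to 0.822 in the latter.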

How the results depend on the processing

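No paired analysis was possible because no column of the table shows a replicate number that GEO's sample titles use, so a fit with a replicate block could not be made. Of 1278 alternatives of single members 1206 kept their direction, 69 flips were of values not called, 45 calls were lost, 15 were gained, and 3 reversed. Centring turned H2-Eb1 from 0 to 96 h to 1.69 in WT and 0.39 in HMGN1-OE cells and H2-Ab1 to 0.58 in HMGN1-OE cells. All 3 lie near the no-signal level at 96 h, where the subtraction of a lower median alone gives a rise. Of 1165 alternatives of other named genes whose tests are printed 965 stayed on their side of the threshold, 153 calls were lost, 29 were gained, and 18 reversed: Irf8 in WT (0.78 with centring, 0.67 with quantile normalization), Lgmn in HMGN1-OE (0.56 with centring), Nfyb (0.091 and 0.15 with centring and 0.16 and 0.21 with quantile normalization in WT and HMGN1-OE), Nfyc (0.014 and 0.033 with quantile normalization), Rfxap (0.22 and 0.088 with centring and 0.085 in WT with quantile normalization), Rfxank (1.06 and 1.01 with centring and 0.90 and 0.90 with quantile normalization), and Emr1 in WT (0.23 with centring, 0.39 with quantile normalization), all from 0 to 96 h.

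Counts of called members moved as follows. HMGN1-OE against WT at 96 h went from 1 to 0 with a pseudocount of 0.1, no filter, a mean of at least 5 FPKM (which left Cd74 untested), centring, quantile normalization, no trend, no moderation, and only the groups compared, and leaving out libraries gave 0 to 1. Leaving out libraries gave 0 to 2 at 0 h, 0 to 1 at 36 h, 0 to 1 for 36 h against 0 h in WT, 0 to 1 for the interaction at 96 h, and 3 to 7 for 96 h against 0 h in HMGN1-OE cells. That count of 7 was 6 with a pseudocount of 0.1 (Ms4a6c not called), 2 with no filter, 2 with a mean of at least 5 FPKM, 4 with centring, 2 with quantile normalization, 3 with no trend, and 2 with no moderation. In WT the count of 4 became 2 with a mean of at least 5 FPKM, where 2 members were tested, 3 with no filter and with no moderation (Mpeg1 not called), and 6 with centring, and leaving out libraries gave 4 to 5. Only the groups compared gave 1 for 36 h against 0 h in HMGN1-OE cells (Mpeg1). The cause of the other shifts was not tested. Over all genes, the count called at 0 h was 157, and 3 to 277 under the alternatives, 2 to 231 at 36 h against 145, and 2 to 127 at 96 h against 77. Centring changed the split of the 96 h against 0 h calls from 4.31% higher and 77.2% lower to 36.5% and 33.8% in WT, and from 5.08% and 62.4% to 30.9% and 32.5% in HMGN1-OE cells. The unknown depth and 2 libraries a group limit all of these values.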

Other observations

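Other lineages moved in the same libraries, where 4.31% of all tested genes rose and 77.2% fell from 0 to 96 h in WT cells and 5.08% and 62.4% in HMGN1-OE cells. After each library was centred on its median, 36.5% rose and 33.8% fell in WT, and 30.9% and 32.5% in HMGN1-OE cells. From 0 to 96 h 5 of 6 tested eosinophil genes rose in WT and 6 of 6 in HMGN1-OE cells, and of 15 tested neutrophil genes 8 rose and 6 fell in WT and 11 rose and 3 fell in HMGN1-OE cells. One of the WT falls, S100a9, rests on WT 96 h library 0, which lists it at 0.0511 FPKM while library 1 has 26546 against 1210 and 366.7 at 0 h. All 6 tested B cell genes fell in both genotypes, and after each library was centred on its median 1 rose and 2 fell in WT and 0 rose and 3 fell in HMGN1-OE cells. Of the 8 tested basophil and mast cell genes 1 rose and 3 fell in each genotype, and after centring 4 rose and 0 fell in WT and 3 rose and 1 fell in HMGN1-OE cells. Of 5 tested dendritic cell genes 2 rose in each, with 2 falling in WT and 1 in HMGN1-OE cells. Mrc1 rose and Emr1, the gene of F4/80, fell among the 2 tested macrophage genes in both genotypes. Of the 6 tested erythroid and megakaryocyte genes 1 rose and 1 fell in WT and 0 rose and 5 fell in HMGN1-OE cells. Of 2 tested T and NK cell genes 1 rose in each genotype and 1 fell in WT cells. After centring 6 of 6 eosinophil genes rose in both genotypes, 9 and 10 neutrophil genes rose and 4 and 0 fell, 2 and 3 dendritic cell genes rose and 1 fell in each, Emr1 was not called, and 3 erythroid and megakaryocyte genes rose in WT while 1 rose and 1 fell in HMGN1-OE cells. In the T and NK cell list 1 gene rose in each genotype and 0 fell.

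Of 6 tested eosinophil genes 3 were called lower in HMGN1-OE than in WT cells at 96 h, against 0.347% of all tested genes. They were Epx, Prg2, and Ear6, all granule genes, with differences of -2.14, -2.19, and -2.12. Leaving out a library gave -2.95 to -1.33 for Epx, -2.86 to -1.52 for Prg2, and -2.75 to -1.50 for Ear6. The calls were kept in 4, 3, and 4 of the 9 other settings. After centring 0 of the 3 was called, although the differences were larger, at -2.54, -2.59, and -2.52 (adjusted p = 0.218, 0.246, and 0.218).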
